A study of Homo sapiens with 6 samples.

Results

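The kinesin motor family was examined in A549 cells, an established human lung adenocarcinoma line, after silencing of the long noncoding RNA LINC00525. Its members are the genes measured on the array whose single annotated symbol is KIF followed by a digit. There were 38 of them among 18132 genes. The antisense RNA KIF25-AS1 also matches that spelling but encodes no motor and was set aside (log2 difference 0.00, adjusted p = 1). KIFC1, a mitotic kinesin whose symbol has a letter in place of the digit, was added to the mitotic class only. Where a gene had several probe sets, the one with the highest mean over the 6 arrays stood for it.

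The study asked which transcripts differ once LINC00525 is silenced. The arrays came from 3 samples titled sh_LINC00525 and 3 titled sh_ctrl, which received a scrambled control. The treatment text speaks of small interfering RNA although the titles read "sh", and the genotype fields of sh_LINC00525 replicates 2 and 3 name LINC00526 and LINC00527. Both groups were the same line in the same medium, and no time after transfection, pooling or separate culture is stated, so the p-values refer to variation among these 6 arrays and that variation may be technical. All 7 measured genes of the epithelial list lay above the highest Tag control probe set, a probe set that matches no human transcript. They were the markers KRT8, KRT18, KRT19, EPCAM and CDH1, and the enzymes ALDH1A1 and AKR1B10, which were listed with them. Above it lay also 1 of 4 leukocyte markers and 2 of 6 fibroblast and endothelial markers. Of the epithelial markers KRT19 rose (0.29 ± 0.040) and KRT8 fell (-0.15 ± 0.039); no marker of the other cell types passed. The leukocyte marker PTPRC had a mean of 2.44 log2 units on the sh_LINC00525 arrays and 2.32 on the sh_ctrl arrays, the lowest of its list. In the same order CD3E had means of 4.57 and 4.64, and ITGAM 4.25 and 4.36. The leukocyte marker above the Tag controls was CD14, at 6.19 and 6.25, higher than the epithelial marker EPCAM at 5.16 and 5.43.

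LINC00525 itself measured 3.67, 3.45 and 3.54 log2 units on the sh_LINC00525 arrays, against 3.86, 3.74 and 3.97 on the sh_ctrl arrays. The groups did not overlap, and the difference was -0.30 ± 0.075 (SE; limma adjusted p = 0.0372; exact permutation p = 0.1, the smallest that 3 arrays against 3 allow). All 6 values were below the highest Tag mean of 4.65, so the signal is close to background. Omitting sh_ctrl replicate 1 or 3, or sh_LINC00525 replicate 2 or 3, ended the call (adjusted p between 0.096 and 0.111).

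Kinesins are motor proteins that hydrolyse ATP to move along microtubules or to take microtubules apart at their ends. One set of them builds the mitotic spindle, moves chromosomes and completes cytokinesis, and its transcripts are known to accumulate in dividing cells in G2 and mitosis. Another set carries vesicles, mitochondria, endosomes and ciliary cargo through the cell at all times, and some of these motors are found mainly in neurons. A549 cells divide continuously in culture, so transcripts of the mitotic set can be measured in them.

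Mitotic kinesins had lower signal on the sh_LINC00525 arrays, and transport kinesins mostly showed no difference past the threshold. Of the 38 KIF genes 9 fell and 0 rose (limma adjusted p under 0.05; 15 lower and 0 higher at an unadjusted p under 0.05). Among all genes, 6.83% fell and 5.77% rose (2805 of 18132 lower and 2009 higher at an unadjusted p under 0.05). Of the 12 mitotic kinesins, KIFC1 included, 7 fell, namely KIF11, KIF18A, KIF22, KIF20A, KIFC1, KIF23 and KIF2C. Of the 13 transport kinesins 1 fell, KIF1B, and of the 14 remaining KIF genes 2 fell, KIF24 and KIF26A. The median log2 difference was -0.24 over the mitotic kinesins, -0.057 over the transport kinesins and -0.028 over the remaining KIF genes, beside -0.013 over all genes. In RNA from whole cultures, fewer cells in mitosis and less transcript in each cell cannot be told apart. With sh_ctrl replicate 2, sh_ctrl replicate 3 or sh_LINC00525 replicate 2 left out, 4 mitotic kinesins passed in each case, and with sh_ctrl replicate 3 or sh_LINC00525 replicate 2 left out, 5 KIF genes passed. Over all 18132 genes 472, 558 and 552 fell in these omissions, in the order first named, against 1239 with every array.

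**Figure D1:**
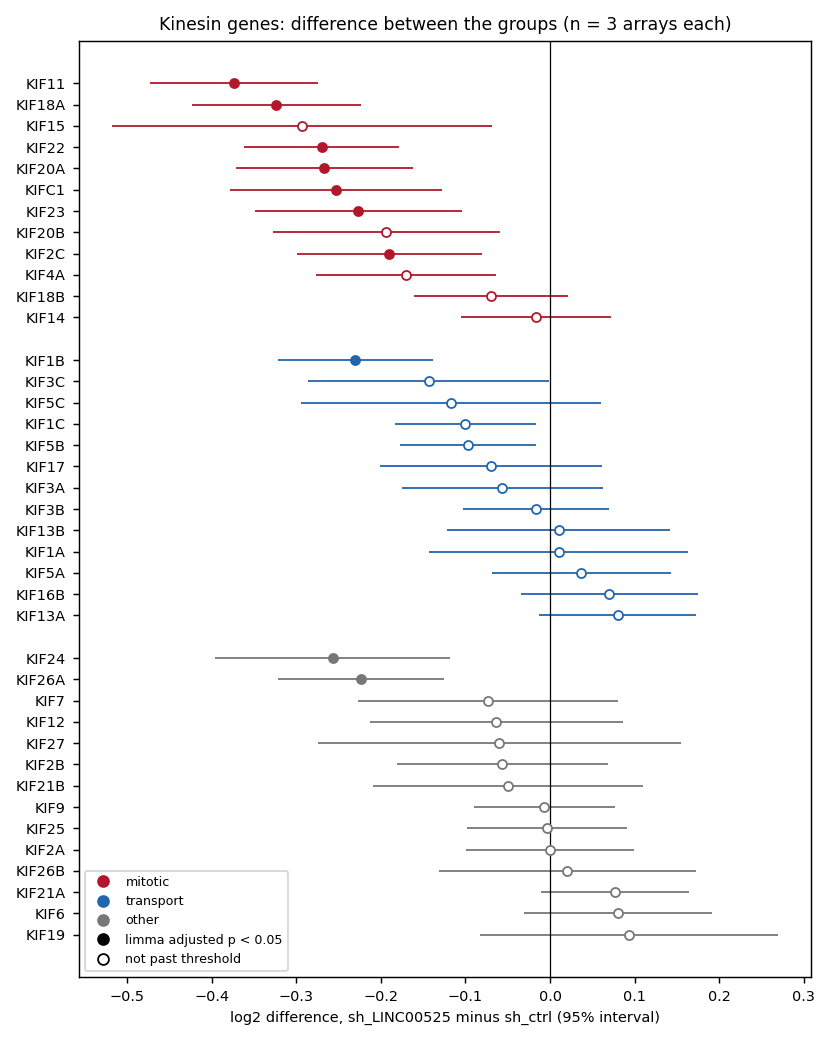
Log2 difference between the sh_LINC00525 and sh_ctrl arrays (horizontal axis, 3 arrays each) for each of the 38 KIF genes and KIFC1, with 95% intervals from the limma fit. Filled points passed an adjusted p of 0.05, which 7 of 12 mitotic, 1 of 13 transport and 2 of 14 other kinesins did, all on the lower side.

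Of the motors that set up the spindle and hold it apart, KIF11 and KIFC1 fell and KIF15 did not pass. KIF11, the tetrameric motor that slides antiparallel microtubules and pushes the spindle poles apart, measured 8.25, 8.18 and 8.26 log2 units on the sh_LINC00525 arrays, against 8.65, 8.56 and 8.60 on the sh_ctrl arrays. The sh_LINC00525 values all lay below the sh_ctrl values, and the signal was 22.8% lower (log2 -0.37 ± 0.043 SE, limma adjusted p = 0.00188). A second KIF11 probe set gave -0.32 (adjusted p = 0.00659 over all probe sets). KIF15, which can keep spindles bipolar when KIF11 is impaired, measured 5.63, 5.38 and 5.25 on the sh_LINC00525 arrays and 5.76, 5.60 and 5.78 on the sh_ctrl arrays. Its groups overlapped, because sh_LINC00525 replicate 1 was above the lowest sh_ctrl array, and the difference of -0.29 (95% interval -0.52 to -0.069) did not pass (adjusted p = 0.094). KIFC1, a minus-end directed motor that focuses spindle poles and clusters extra centrosomes, measured 6.91, 6.78 and 6.97 on the sh_LINC00525 arrays, against 7.15, 7.16 and 7.11 on the sh_ctrl arrays. These groups did not overlap, and KIFC1 fell by 0.25 ± 0.054 (adjusted p = 0.0226). Its call ended when any array but sh_LINC00525 replicate 3 was omitted (adjusted p between 0.0503 and 0.0828), and with the replicate number as a block (adjusted p = 0.0539).

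The motors that act on chromosomes and kinetochore microtubules differed from one another. KIF18A, which damps chromosome oscillations at the metaphase plate, measured 7.24, 7.16 and 7.15 on the sh_LINC00525 arrays, against 7.47, 7.50 and 7.55 on the sh_ctrl arrays. The groups were well separated, and KIF18A fell by 0.32 ± 0.043 (adjusted p = 0.00363). Its relative KIF18B, which acts at the plus ends of astral microtubules, measured 5.73, 5.73 and 5.66 on the sh_LINC00525 arrays, against 5.78, 5.80 and 5.75 on the sh_ctrl arrays. The KIF18B groups did not overlap either, but the difference was small (-0.07, 95% interval -0.16 to 0.021, adjusted p = 0.311). Its 4 probe sets gave -0.07 to -0.063, and a pair of them carry identical values on every array, so they are not separate measurements. Whether the KIF18A and KIF18B differences differ from each other was not tested.

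KIF22, a chromokinesin that binds DNA and pushes chromosome arms away from the poles, measured 7.57, 7.56 and 7.59 on the sh_LINC00525 arrays, against 7.84, 7.89 and 7.80 on the sh_ctrl arrays. It was 17.1% lower (log2 -0.27 ± 0.039, adjusted p = 0.00522), and its other probe sets gave -0.25 and -0.31, both past the threshold. KIF4A, the chromokinesin that also organises the central spindle, measured 7.29, 7.25 and 7.33 on the sh_LINC00525 arrays, against 7.39, 7.51 and 7.48 on the sh_ctrl arrays. The groups did not overlap, yet the difference of -0.17 (95% interval -0.28 to -0.064) lay just outside the threshold (adjusted p = 0.0507), and a second probe set gave -0.20 (adjusted p = 0.0693). A further probe set shared by KIF4A and its intronless copy KIF4B was not used, and KIF4B had no probe set of its own. KIF2C, which depolymerises faulty kinetochore attachments at centromeres, measured 8.49, 8.49 and 8.56 on the sh_LINC00525 arrays, against 8.67, 8.66 and 8.78 on the sh_ctrl arrays. The groups were separate and KIF2C fell by 0.19 ± 0.047 (adjusted p = 0.0376), but the call ended whichever of the 6 arrays was omitted (adjusted p between 0.0548 and 0.113). A second KIF2C probe set gave -0.15 (adjusted p = 0.0779).

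Among the motors of the spindle midzone and cytokinesis, KIF20A, which brings the chromosomal passenger complex to the midzone, measured 7.86, 7.76 and 7.86 on the sh_LINC00525 arrays, against 8.08, 8.06 and 8.14 on the sh_ctrl arrays. No array of either group reached the range of the other, and KIF20A fell by 0.27 ± 0.045 (adjusted p = 0.00953). KIF23, the motor subunit of the centralspindlin complex, measured 8.42, 8.30 and 8.24 on the sh_LINC00525 arrays, against 8.52, 8.58 and 8.54 on the sh_ctrl arrays. KIF23 fell by 0.23 ± 0.053 (adjusted p = 0.0304), although a second probe set gave -0.11 (adjusted p = 0.133) and the call ended when any array but sh_LINC00525 replicate 1 was omitted (adjusted p between 0.0705 and 0.107), and with the replicate number as a block (adjusted p = 0.0623). KIF20B, a motor that takes part in abscission, measured 6.22, 6.13 and 6.0 on the sh_LINC00525 arrays, against 6.32, 6.29 and 6.32 on the sh_ctrl arrays. These groups did not overlap, and the difference of -0.19 (95% interval -0.33 to -0.059) did not pass (adjusted p = 0.0708). KIF14, which recruits citron kinase to the midbody, measured 7.04, 7.06 and 7.06 on the sh_LINC00525 arrays, against 7.03, 7.07 and 7.11 on the sh_ctrl arrays. Its sh_LINC00525 values lay inside the sh_ctrl range, with a difference of -0.017 (95% interval -0.10 to 0.072), and its second probe set gave -0.0067.

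**Figure D2:**
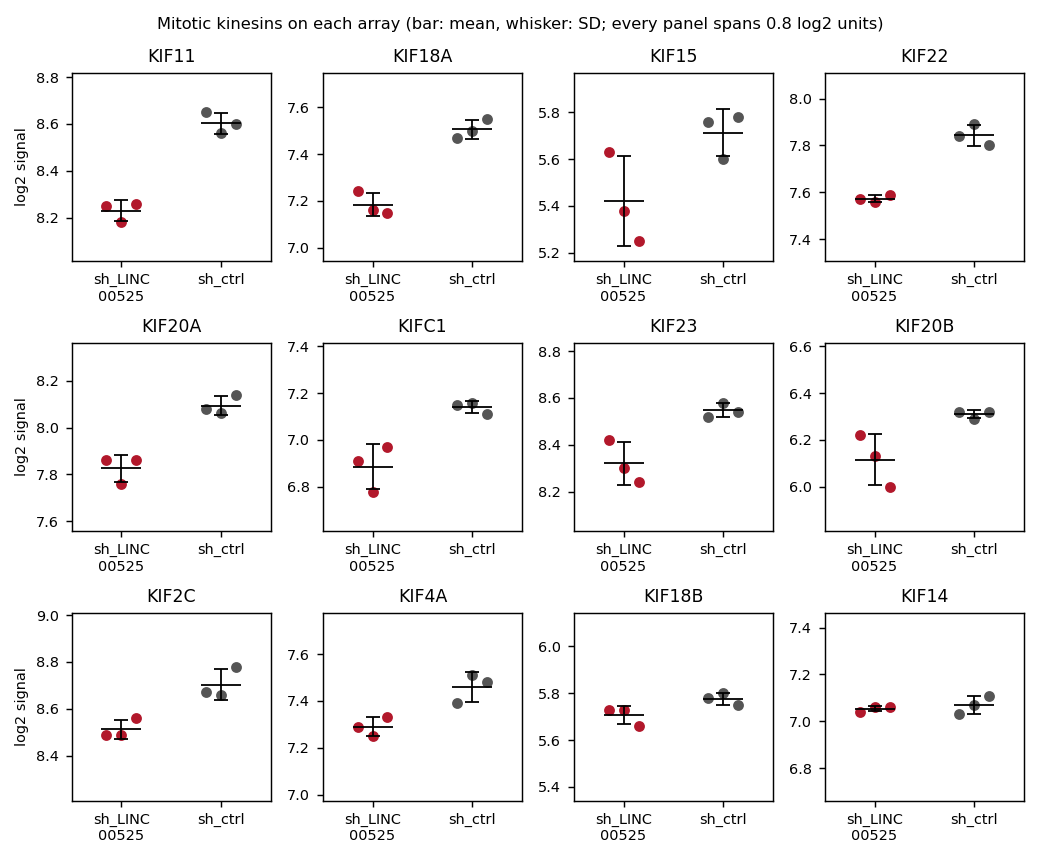
Log2 signal (vertical axes, each panel spanning the same number of log2 units) of the 12 mitotic kinesins on the 3 sh_LINC00525 arrays (left in each panel) and the 3 sh_ctrl arrays (right), with means as bars and SDs as whiskers. In 10 panels every sh_LINC00525 point lies below every sh_ctrl point, and the exceptions are KIF15 and KIF14.

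Across the class, the groups did not overlap for 10 of the 12 mitotic kinesins, lower on the sh_LINC00525 arrays in each case. Among all genes, 17.9% were lower without overlap and 12.9% higher without overlap. Of the 22 probe sets of the 12 genes, 22 had a negative difference and 10 passed (5.33% of all probe sets passed on the lower side). Among all genes 55.1% had a negative difference. Probe sets of the same gene are not independent, and the 22 include the identical KIF18B pair. Taking each gene relative to its own sh_ctrl mean, the median over the mitotic kinesins was -0.19, -0.265 and -0.24 on sh_LINC00525 replicates 1, 2 and 3, against -0.0083, -0.0033 and 0.015 on the sh_ctrl arrays. On sh_LINC00525 replicate 1 the median was nearest to the control arrays, and without that array the difference of KIF15 became -0.40 (adjusted p = 0.0223) and that of KIF20B -0.245 (adjusted p = 0.0368). Neither gene passed when any other array was omitted (limma adjusted p of 0.114 to 0.236 for KIF15 and 0.131 to 0.168 for KIF20B).

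Promoters of many genes expressed in G2 and mitosis are known to carry CCAAT boxes, bound by the factor NF-Y, and a cell cycle homology region (CHR), bound by complexes built on the MuvB core. Both were looked for, on both strands, in the 250 bases before the annotated start, with CCAAT as the letters CCAAT and CHR as TTTGAA or TTTAAA. Start sites and sequences are those of RefSeq on GRCh38.p14, and the promoter set used held 33 of the 39 genes (the 38 and KIFC1). It covered all 12 mitotic genes, 11 of the 13 transport genes and 10 of the 14 others. The 150 bases before the start are shown for KIF11, KIF18A and KIF20A as mitotic kinesins that fell, for KIF14 as a mitotic kinesin that did not differ past the threshold, and for KIF5B as a transport kinesin, each written 5′ to 3′ on the gene's own strand with the motif matches in capitals (ATTGG and TTCAAA are the motifs read from the other strand):
KIF11, chr10:92592980-92593129, plus strand: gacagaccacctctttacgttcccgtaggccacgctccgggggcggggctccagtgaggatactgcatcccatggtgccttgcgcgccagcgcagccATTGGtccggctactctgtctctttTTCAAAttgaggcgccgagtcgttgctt
KIF18A, chr11:28108157-28108306, minus strand: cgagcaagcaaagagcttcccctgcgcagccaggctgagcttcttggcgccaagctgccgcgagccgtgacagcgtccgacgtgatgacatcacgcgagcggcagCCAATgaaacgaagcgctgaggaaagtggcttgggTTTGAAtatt
KIF20A, chr5:138178962-138179111, plus strand: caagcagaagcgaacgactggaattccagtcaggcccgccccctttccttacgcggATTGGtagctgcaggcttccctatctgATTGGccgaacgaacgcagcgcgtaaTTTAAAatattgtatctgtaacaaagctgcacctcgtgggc
KIF14, chr1:200620752-200620901, minus strand: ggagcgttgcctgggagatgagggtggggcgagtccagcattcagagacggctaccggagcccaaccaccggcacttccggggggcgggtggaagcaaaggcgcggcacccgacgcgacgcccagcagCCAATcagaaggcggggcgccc
KIF5B, chr10:32056426-32056575, minus strand: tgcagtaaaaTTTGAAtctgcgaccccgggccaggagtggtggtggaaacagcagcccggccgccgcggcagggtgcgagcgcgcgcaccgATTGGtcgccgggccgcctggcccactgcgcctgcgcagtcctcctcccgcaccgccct

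In KIF11, KIF18A and KIF20A a CCAAT box stood upstream of a CHR match, and both lay close to the start. The sequences shown do not stand for every mitotic kinesin that fell, since only 4 of those 7 had a CHR match. The first base of the CHR match was at -28 in KIF11, -10 in KIF18A and -41 in KIF20A, and that of the nearest CCAAT box at -53, -45 and -67. The order was the same in KIF4A, which did not pass (CCAAT at -58, CHR at -34). It was also found in KIF23, which fell (CCAAT at -64, CHR at -55, with a further CHR match at -211). In KIF14 the CCAAT box was at -22 and the CHR match at -198, outside the stretch shown. KIF5B had its CHR match at -140, upstream of its CCAAT box at -59. Of the 12 mitotic genes, 7 had a CHR match, 10 a CCAAT box and 6 both. Counted over promoters, since some genes have more than 1, both motifs were present in 46.2% of the 13 mitotic, 6.25% of the 16 transport and 7.64% of all 35116 promoters, and in 0 of 13 promoters of other KIF genes. CHR matches alone were in 53.8%, 12.5% and 21.9% of mitotic, transport and all promoters, and CCAAT boxes in 76.9%, 31.2% and 32.0%. The 2 motifs overlapped in 0 KIF promoters. Within the mitotic class, both motifs were present in 4 of the 7 genes that fell (KIF11, KIF18A, KIF20A and KIF23) and in 2 of the 5 that did not pass (KIF4A and KIF14). KIF22 and KIFC1 fell with CCAAT boxes and no CHR match in this window, and KIF2C fell with neither. These matches describe the letters in the window and do not show binding.

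Kinesins that carry cargo had differences from -0.23 to 0.08, with 8 of 13 differences below 0 and 5 above. Among all genes 55.1% of differences were below 0. Of these 13 genes, 11 had signal above the highest Tag control. KIF5B, the heavy chain of conventional kinesin found in most cells, measured 10.19, 10.21 and 10.18 on the sh_LINC00525 arrays, against 10.30, 10.29 and 10.28 on the sh_ctrl arrays. The KIF5B groups were separate and the replicates of each lay close together, but the difference was -0.097 ± 0.035 and did not pass (adjusted p = 0.12). Its other 3 probe sets gave -0.047 to -0.03. The neuronal heavy chains KIF5A and KIF5C did not pass either: KIF5A measured 5.16, 5.26 and 5.18 on the sh_LINC00525 arrays, against 5.21, 5.11 and 5.17 on the sh_ctrl arrays, while KIF5C was at background (means of 3.92 on the sh_LINC00525 arrays and 4.03 on the sh_ctrl arrays, difference -0.12).

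KIF1B, a motor of mitochondria and synaptic vesicle precursors, was the transport kinesin past the threshold. It measured 7.33, 7.35 and 7.31 on the sh_LINC00525 arrays, against 7.59, 7.58 and 7.51 on the sh_ctrl arrays, without overlap (log2 -0.23 ± 0.039, adjusted p = 0.00991). The call depends on the probe set. The other 5 KIF1B probe sets gave -0.12 to 0.20, none past the threshold, and with all 6 averaged the difference was -0.032 (adjusted p = 0.659). KIF1C, which moves Golgi-derived and integrin-bearing vesicles, measured 7.56, 7.58 and 7.59 on the sh_LINC00525 arrays, against 7.65, 7.70 and 7.68 on the sh_ctrl arrays. The KIF1C groups did not overlap and the difference of -0.10 did not pass (adjusted p = 0.121). KIF1A, the neuronal member, measured 5.15, 5.15 and 5.06 on the sh_LINC00525 arrays and 5.1, 5.24 and 4.99 on the sh_ctrl arrays, so its groups overlapped fully.

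The heterotrimeric motor of intraflagellar transport has KIF3A and KIF3B as its motor subunits, and KIF3C can take the place of KIF3B beside KIF3A. KIF3A measured 6.97, 7.03 and 7.13 on the sh_LINC00525 arrays, against 7.05, 7.13 and 7.12 on the sh_ctrl arrays. KIF3B measured 8.23, 8.25 and 8.25 on the sh_LINC00525 arrays, against 8.30, 8.23 and 8.25 on the sh_ctrl arrays. Both pairs of groups overlapped, with differences of -0.057 for KIF3A and -0.017 for KIF3B. KIF3C measured 8.04, 8.17 and 8.13 on the sh_LINC00525 arrays, against 8.23, 8.37 and 8.17 on the sh_ctrl arrays, which touched at 8.17 (difference -0.14, adjusted p = 0.185). Its other probe sets disagreed, at -0.31 (adjusted p = 0.0762) and 0.11 (adjusted p = 0.198).

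Motors of endosomes and related vesicles had differences of 0.01 to 0.08, none past the threshold, which turned negative when arrays were scaled to the hybridization controls. KIF13A, which carries mannose 6-phosphate receptors and recycling endosomes, measured 4.87, 4.91 and 4.86 on the sh_LINC00525 arrays, against 4.77, 4.85 and 4.78 on the sh_ctrl arrays (difference 0.08, adjusted p = 0.254). The KIF13A signal was close to the highest Tag mean of 4.65. KIF16B, a motor of early endosomes, measured 6.6, 6.68 and 6.63 on the sh_LINC00525 arrays, against 6.61, 6.5 and 6.59 on the sh_ctrl arrays (0.07, adjusted p = 0.379), and a second KIF16B probe set gave -0.11 (adjusted p = 0.161). KIF13B measured 6.39, 6.28 and 6.22 on the sh_LINC00525 arrays, against 6.21, 6.32 and 6.33 on the sh_ctrl arrays (0.01). The KIF13A groups were separate and the others overlapped. KIF17, known in mouse neurons for carrying glutamate receptor subunits, had a mean of 4.29 on the sh_LINC00525 arrays and 4.36 on the sh_ctrl arrays, within the range of the Tag controls (difference -0.07). Over the 41 probe sets of the transport kinesins 26 differences were below 0 and 14 above, and 1 passed.

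**Figure D3:**
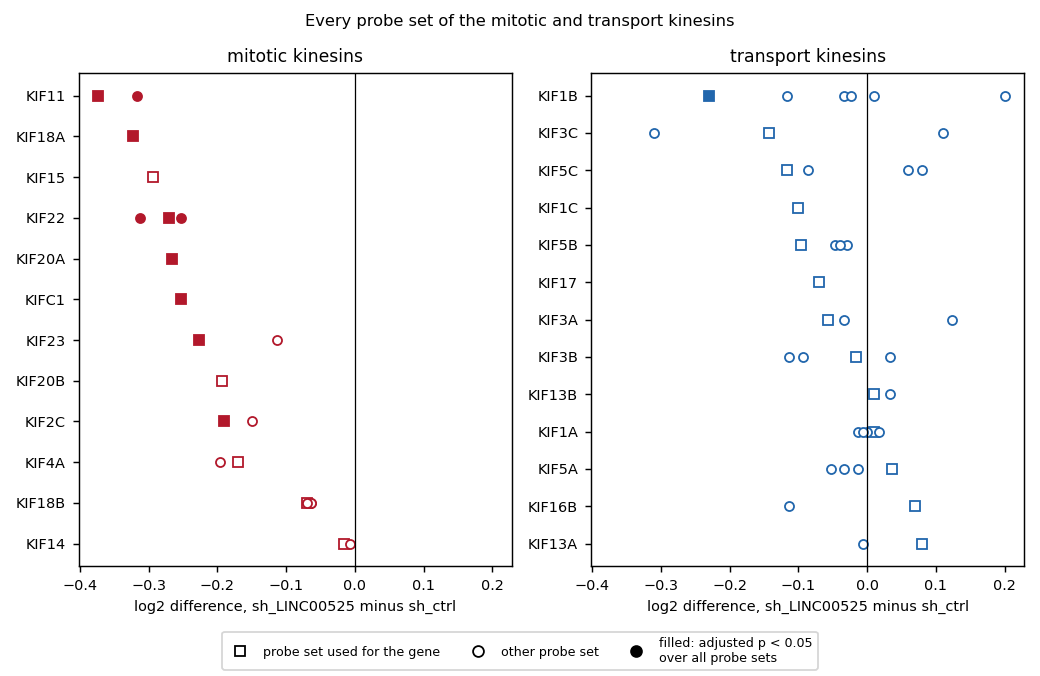
Log2 difference (horizontal axes, sh_LINC00525 minus sh_ctrl) at every probe set of the mitotic (left) and transport (right) kinesins, with squares for the probe set that stands for the gene, circles for the others, and filled symbols for an adjusted p under 0.05 over all probe sets. All 22 mitotic points lie below 0, whereas probe sets of KIF1B and KIF3C lie on both sides.

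Of the 14 KIF genes in neither class, 8 had signal above the highest Tag control. KIF24, which trims microtubules at centrioles and holds back cilium formation, measured 4.64, 4.62 and 4.81 on the sh_LINC00525 arrays, against 4.91, 4.92 and 5.01 on the sh_ctrl arrays. The groups did not overlap and KIF24 fell by 0.26 ± 0.060 (adjusted p = 0.0306), but the signal was close to the highest Tag mean of 4.65. Its second probe set gave -0.057 (adjusted p = 0.518), and the call ended when any array but sh_LINC00525 replicate 3 was omitted (adjusted p between 0.0676 and 0.0997). KIF26A, an atypical kinesin reported in mouse to bind microtubules without ATPase activity, measured 6.02, 5.99 and 6.10 on the sh_LINC00525 arrays, against 6.28, 6.24 and 6.26 on the sh_ctrl arrays. It fell by 0.22 ± 0.042 at its single probe set (adjusted p = 0.0149), a call lost without sh_ctrl replicate 1, sh_ctrl replicate 3 or sh_LINC00525 replicate 2 (adjusted p between 0.0516 and 0.0541).

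KIF2A, a microtubule depolymerase of spindle poles and the close relative of KIF2C, measured 8.38, 8.47 and 8.47 on the sh_LINC00525 arrays, against 8.48, 8.42 and 8.42 on the sh_ctrl arrays. Its groups overlapped fully, with a difference of 0.00 (95% interval -0.099 to 0.099) and 0.0033 and 0.023 at its other probe sets. KIF21A, a motor of the cell cortex and of axons, measured 8.68, 8.69 and 8.67 on the sh_LINC00525 arrays, against 8.56, 8.63 and 8.62 on the sh_ctrl arrays. The KIF21A groups were separate on the higher side without passing (0.077, 95% interval -0.011 to 0.16, adjusted p = 0.245), and its other probe sets gave -0.05 to 0.093. KIF21B was at -0.05, with 0.14 at its second probe set. KIFC3, a minus-end directed kinesin outside the KIF-digit names, had differences of 0.077 to 0.18 at its 6 probe sets, none past the threshold, and KIFC2 was at -0.0033. For KIF9, KIF12 and KIF19 the differences were -0.0067, -0.063 and 0.093, with none past the threshold. The ciliary Hedgehog regulator KIF7, its relative KIF27, KIF2B, KIF6, KIF25 and KIF26B had signal within the range of the Tag controls and differences of -0.073 to 0.08.

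**Figure D4:**
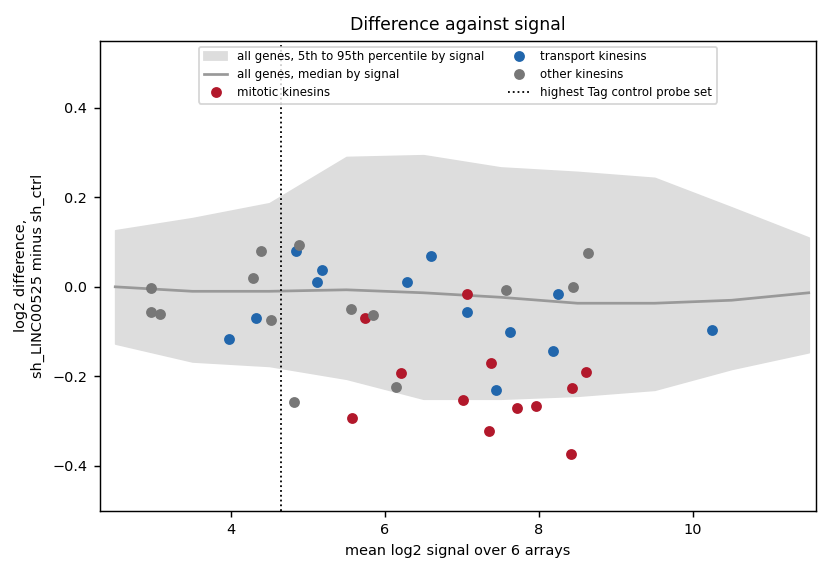
Log2 difference (vertical axis, sh_LINC00525 minus sh_ctrl) against mean log2 signal over the 6 arrays (horizontal axis) for the kinesins, over the band that holds the 5th to 95th percentile of all genes of like signal, with the highest Tag control at 4.65 as a dotted line. Mitotic kinesins such as KIF11 and KIF18A lie below the band, and most transport kinesins lie near the median of all genes.

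The deposited values set each difference against the bulk of genes on an array. Bacterial hybridization controls were higher on the sh_LINC00525 arrays by 0.28 (means of 9.50 on the sh_LINC00525 arrays and 9.22 on the sh_ctrl arrays), and when the arrays were scaled to them the median of all genes moved to -0.29, that of the mitotic kinesins to -0.52 and that of the transport kinesins to -0.34. Scaled to the poly-A controls these medians were -0.15, -0.38 and -0.20. Over all genes 1239 fell and 1046 rose, a split that became 909 and 1290 after cyclic loess, 15085 and 232 with the hybridization controls and 8397 and 497 with the poly-A controls.

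Genes for proteins that bind or regulate the mitotic kinesins also had lower signal on the sh_LINC00525 arrays. Of 16 measured, 9 fell and 0 rose (13 lower and 0 higher at an unadjusted p under 0.05), with a median of -0.18. Over all genes 6.83% fell and 5.77% rose, with a median of -0.013. CENPE, itself a kinesin that carries chromosomes along microtubules to the plate, measured 7.12, 6.92 and 6.62 on the sh_LINC00525 arrays, against 7.31, 7.32 and 7.36 on the sh_ctrl arrays (log2 -0.44 ± 0.11, adjusted p = 0.0395). RACGAP1, the partner of KIF23 in centralspindlin, fell by 0.30 ± 0.077. CDCA8 of the chromosomal passenger complex, which KIF20A transports, fell by 0.28 ± 0.046, and the kinase PLK1 fell by 0.27 ± 0.042. NUSAP1, a microtubule bundling protein, fell by 0.24 ± 0.059 and HMMR, a spindle pole protein, by 0.19 ± 0.046. BIRC5, PRC1 and AURKA were the other members that fell. The count was 2 without sh_ctrl replicate 2 or 3, and 3 without sh_LINC00525 replicate 2. It was 4 without sh_ctrl replicate 1 or sh_LINC00525 replicate 1. Over all 18132 genes the number that fell also dropped in these omissions, from 1239 to between 472 and 741.

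Genes that link transport kinesins to cargo were mixed. Of 15 measured, 2 fell and 1 rose, with a median of 0.033, beside 6.83% falling and 5.77% rising over all genes. TRAK2, an adaptor between KIF5 motors and mitochondria, measured 6.71, 6.71 and 6.61 on the sh_LINC00525 arrays, against 7.13, 7.07 and 7.10 on the sh_ctrl arrays. The groups did not overlap, and TRAK2 fell by 0.42 ± 0.043 (adjusted p = 0.00112). Its paralog TRAK1 was at -0.037 (adjusted p = 0.636). KIFBP, a protein that binds the motor domain of several kinesins and blocks microtubule binding, fell by 0.17 ± 0.039 (adjusted p = 0.03), and FEZ1, an adaptor of KIF5, rose by 0.21 ± 0.042 (adjusted p = 0.0179) at a signal close to the highest Tag control. The light chains KLC1 and KLC2 were at 0.16 (adjusted p = 0.0922) and 0.10 (adjusted p = 0.23). Left without any 1 array other than sh_LINC00525 replicate 3, the list had 1 call, and without that array it had 2.

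Cytoplasmic dynein and dynactin, the motor that runs toward microtubule minus ends, gave 1 fall and 0 rises among 18 genes (3 lower and 2 higher at an unadjusted p under 0.05), with a median of -0.035. The share that fell, 5.56%, was near the 6.83% over all genes. The gene that fell was DYNLL2, a light chain (-0.16 ± 0.042, adjusted p = 0.0457), and the list had 0 calls when any array but sh_LINC00525 replicate 3 was omitted (limma, 2 to 3 lower and 1 to 2 higher at an unadjusted p under 0.05). The heavy chain DYNC1H1 was at 0.067 (adjusted p = 0.306).

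**Figure D5:**
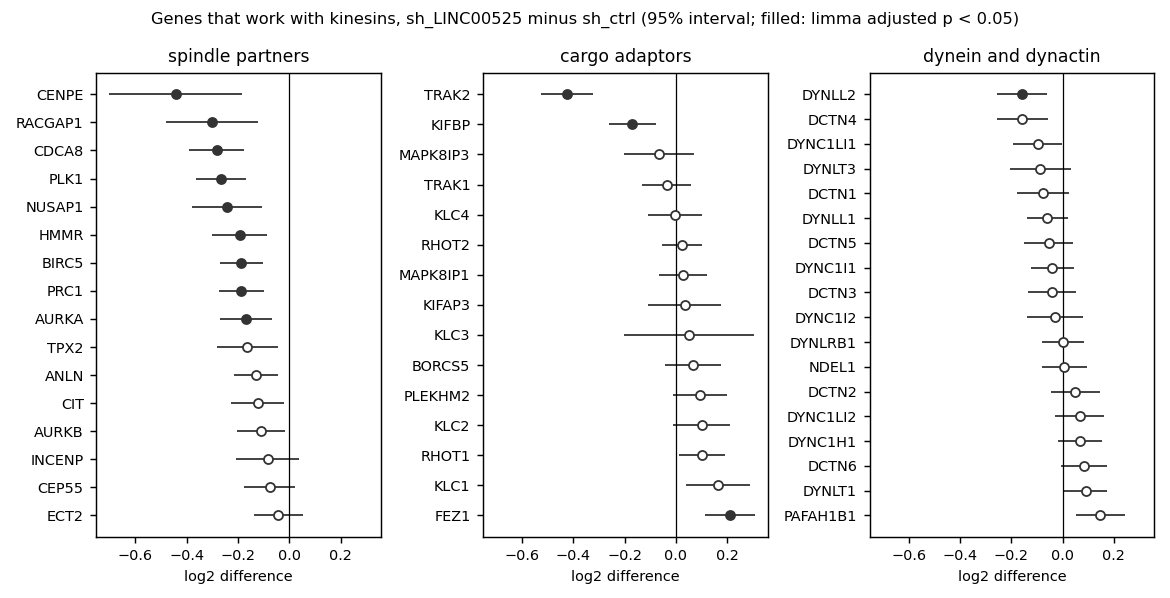
Log2 difference (horizontal axes, sh_LINC00525 minus sh_ctrl, 95% intervals) of spindle partners, cargo adaptors and dynein or dynactin genes, with filled points for an adjusted p under 0.05. Of the spindle partners 9 of 16 passed, all lower, while TRAK2, KIFBP and FEZ1 passed among the cargo adaptors and DYNLL2 in the dynein list.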

How the data were processed

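The authors deposited log2 values of 49372 probe sets on 6 one-colour arrays, made with RMA, a method that summarises probes after normalization across arrays, per the submitters' processing notes. The software and its version are not given in the sources used for this work. Array medians were 5.10 to 5.11, and the values were not normalized again. RMA removes changes shared by most genes and compresses differences near background. Symbols came from the platform annotation, updated by gene identifier (44967 of 44994 single-symbol probe sets matched GRCh38.p14). No filter on low values was applied. Of the gene table, 11735 genes had more than 1 probe set.

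Groups follow the sample titles. All 18132 genes were fitted with limma 3.58.1 in R 4.3.3 (sh_LINC00525 minus sh_ctrl, no covariate), with Benjamini-Hochberg adjustment over all of them and a threshold of 0.05. Probe sets were fitted the same way over 44994. Errors are standard errors or 95% intervals of the fit. In simulated arrays of 18132 genes, 100 genes were changed by 0.2 log2 units and 100 by 0.4. Of these changes 23% and 97% were called. The simulation gave 130 calls against 2285 in the data, and the adjustment is stricter when fewer genes change. These shares therefore do not give the rate of misses in the data. The number of arrays limits the precision.

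The members, the class and partner lists, and the motifs were chosen with earlier results of these data known. Every KIF gene is named; values on each array are given for mitotic kinesins, KIF genes past the threshold and transport kinesins of high signal, and at most 6 genes past the threshold per partner list are described. KIF2A, KIF21A, transport kinesins of lower signal and any further partner genes were named beyond that rule after their values were seen. Alternatives covered probe set choice, dim genes, scaling, variance model, replicate block and each array left out. Figures were drawn with matplotlib 3.10.9. Arrays of 1 group correlated at 0.9983 to 0.9988, and no pair shared more than 4.81% identical values.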

Additional observations from a re-analysis of the deposited data

How the results depend on the processing

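The number of arrays and signal near background limit these results. Of the 12 mitotic kinesins, 11 stayed below 0 under every alternative and omission run, the exception being KIF14 (0.010 after cyclic loess and 0.0033 without sh_ctrl replicate 3), and 5 genes (KIF11, KIF18A, KIF20A, KIF22 and KIF1B) kept their call whichever array was left out. Over these omissions the counts past the threshold ranged from 5 to 9 for KIF genes, 4 to 7 for mitotic kinesins, 1 to 1 for transport kinesins, 2 to 6 for spindle partners, 1 to 2 for cargo adaptors and 0 to 1 for dynein genes. Among all 18132 genes, 1104 to 1575 passed. The medians ranged from -0.27 to -0.21 (mitotic) and -0.05 to -0.028 (transport), and LINC00525 from -0.36 to -0.25.

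Scaled to the hybridization controls, 37 of the 38 KIF genes passed, 13 transport kinesins among them, with 12 mitotic kinesins (KIFC1 included), 16 spindle partners, 10 cargo adaptors and 16 dynein genes. Scaled to the poly-A controls the counts were 26 KIF genes, 8 transport kinesins among them, with 12 mitotic kinesins (KIFC1 included), 16 spindle partners and 10 dynein genes. All were lower, because both scalings shift every gene down: medians were -0.52 and -0.38 (mitotic) and -0.34 and -0.20 (transport). With the hybridization controls 8 genes turned negative and passed the threshold: KIF13A (-0.20), KIF13B (-0.27), KIF16B (-0.21), KIF1A (-0.27), KIF21A (-0.20), KIF26B (-0.26), KIF5A (-0.24) and KIF6 (-0.20). KIF19 also turned negative without passing (-0.19). After cyclic loess the mitotic median was -0.21, and 7 KIF genes and 5 mitotic kinesins passed, beside 2199 of all 18132 genes. KIF23 (limma adjusted p = 0.0629) and KIF2C (limma adjusted p = 0.0614) lost their calls there. In the same setting 4 spindle partners and 3 cargo adaptors passed (1 lower, 2 higher). A dynein gene (1) passed on the higher side, as also happened without _s_at and _x_at probe sets (1). Without variance moderation 4 mitotic and 2 transport kinesins, 4 spindle partners and 0 dynein genes passed (limma, 4 dynein genes lower and 4 higher at an unadjusted p under 0.05), and LINC00525 kept its -0.30 but lost its call (adjusted p = 0.151). KIF23, KIF2C, KIFC1 and KIF24 also lost their calls without moderation (limma fit, adjusted p between 0.0899 and 0.119). With an intensity trend 2 transport kinesins, 5 cargo adaptors and 4 dynein genes passed, beside 3522 of all 18132 genes. With dim genes left out 3 of 11 transport kinesins and 3 of 17 dynein genes passed, beside 3128 of all 11364 genes kept. The transport median was then -0.017, and LINC00525 has no value in that setting. With probe sets averaged 0 transport kinesins passed (limma, 1 lower at an unadjusted p under 0.05) and their median was -0.022. Among all 18132 genes, 1314 passed without variance moderation and 2511 with probe sets averaged. The cause of these moves was not tested unless given.

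Same-numbered arrays deviated together little (correlations 0.092, 0.058, -0.0095) and were not treated as pairs. With the replicate block, 8 KIF genes passed, and by list 5 mitotic kinesins, 1 transport kinesin, 4 spindle partners, 2 cargo adaptors and 0 dynein genes (limma, 2 lower and 1 higher at an unadjusted p under 0.05), and LINC00525 stayed past the threshold at -0.30. Among all 18132 genes, 1565 passed with the block.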
